A study of Mus musculus with 18 samples.

Results

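The tumour necrosis factor (TNF) superfamily was examined in microdissected kidney tissue of mice with adult-onset polycystic kidney disease. Members were the genes of the count table with a Tnfsf or Tnfrsf number in their symbol, together with Tnf, Lta, Ltb, Ltbr, Cd40, Cd40lg, Fas, Fasl, Cd27, Cd70 and Eda2r, if they had at least 10 counts over all libraries. Of 43 matching symbols, 39 of the table's 32285 genes met this rule: 13 ligands, 25 receptors and Tnfsf13os, a noncoding transcript antisense to Tnfsf13. The other 4 (Tnfsf4, Tnfsf11, Tnfsf18 and Cd70) had fewer counts.

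All groups came from male C57BL/6 iKspCre-Pkd1del mice, in which a kidney-specific, tamoxifen-inducible Cre removes exons of Pkd1 flanked by loxP sites. Tamoxifen was given at 12.5 mg/kg by gavage on postnatal days 18 and 19, and the mice were killed in a mild cystic phase. Tissue was dissected into 3 groups by cysts and by staining for F4/80, a macrophage surface protein: non-cystic, F4/80-low cystic and F4/80-high cystic regions. Each group had 6 libraries, 2 from each of 3 kidneys, with a labelled age of 269 for kidneys 1 and 3 and 297 for kidney 2 and no unit. The labels do not say whether the kidneys came from separate mice. There was no group without the Pkd1 deletion, so non-cystic regions are knockout tissue too. The Ksp promoter behind the Cre is known from kidney tubule epithelium, whereas the dissected pieces also held RNA of immune, stromal and vascular cells.

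Ligands of this family are mostly trimeric membrane proteins that bind receptors with cysteine-rich domains, and several are released from the membrane by proteases. Receptors with a cytoplasmic death domain, such as those for TNF and for Fas ligand, can start caspases or necroptosis, and the others recruit TRAF adaptors that lead to canonical or non-canonical NF-kB. Decoy receptors bind ligand without passing on a signal. In kidney, tubule cells carry several of the receptors, while many ligands are known from macrophages, dendritic cells and lymphocytes.

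Promoter windows are shown for Ltb and Tnfrsf9 because they were the members that rose in F4/80-high regions and also held a match to the kappa B consensus, the motif of NF-kB. Each window holds 300 bases, 250 before and 50 from the RefSeq start (GRCm38.p6), written 5′ to 3′ in the gene's direction, with the match in capitals. Ltb lies at chr17:35194257-35194556 on the plus strand and Tnfrsf9, at the second of its windows, at chr4:150927749-150928048 on the plus strand.
Ltb: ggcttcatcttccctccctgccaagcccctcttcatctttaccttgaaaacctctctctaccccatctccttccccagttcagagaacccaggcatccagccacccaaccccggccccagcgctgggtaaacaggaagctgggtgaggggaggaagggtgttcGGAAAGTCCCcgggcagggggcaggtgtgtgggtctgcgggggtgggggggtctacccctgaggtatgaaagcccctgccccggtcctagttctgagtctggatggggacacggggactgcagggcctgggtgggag
Tnfrsf9: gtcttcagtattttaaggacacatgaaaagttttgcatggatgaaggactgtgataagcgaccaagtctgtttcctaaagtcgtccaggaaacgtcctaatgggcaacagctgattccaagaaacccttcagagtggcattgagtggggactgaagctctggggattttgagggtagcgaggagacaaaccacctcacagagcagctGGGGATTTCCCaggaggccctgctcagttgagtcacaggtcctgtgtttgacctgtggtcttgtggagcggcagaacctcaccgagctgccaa
The match began at -87 in Ltb and at -43 in Tnfrsf9, counted from the start. Both strands were searched, and overlapping matches in the Tnfrsf9 window are shown as 1 stretch. Of 39 members, 30 had a window, and 3 of these (10%) held a match, the third being Tnfrsf8, which was too low to test. Over all 27025 genes with a window the share was 5.14%, and 2 of the 16 members that were higher in F4/80-high than in non-cystic regions and had a window held one. A match is a run of letters and not a measured binding site.

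Library totals ran from 5366651 to 9188813 counts. The mitochondrially encoded share of counts was 10.6 to 15.4% in non-cystic libraries, 7.71 to 11.1% in F4/80-low libraries and 1.49 to 4.06% in F4/80-high libraries. One F4/80-low library, kidney 2 replicate 2, stood apart with 8.90% of its counts in Spp1 (osteopontin), against 0.241 to 2.09% in the other F4/80-low libraries. Adgre1, which encodes F4/80, had a CPM (counts scaled to a common library size) of 2.56 ± 0.962 (SD, n = 3 kidneys) in non-cystic tissue, 6.55 ± 1.65 in F4/80-low tissue and 53.9 ± 14.9 in F4/80-high tissue. Since F4/80 signal guided the dissection, that order only checks it. The summed CPM of 12 macrophage markers was 72.1 to 143 in non-cystic libraries, 190 to 618 in F4/80-low libraries and 1032 to 2772 in F4/80-high libraries. By the test described below, 11 of the 12 were called higher in F4/80-high than in either other region type. In F4/80-high tissue 19.7% of all tested genes were called higher than in non-cystic and 10.3% than in F4/80-low tissue. For F4/80-low against non-cystic tissue that share was 1.51%. For 12 T and NK cell markers the sums were 6.37 to 22.4, 11.1 to 43.6 and 70.9 to 129 CPM, while 8 proximal tubule markers fell from 21161 to 45500 CPM in non-cystic to 292 to 8228 CPM in F4/80-high libraries. Other lists moved too. Of 7 tested fibroblast and pericyte markers, 3 were higher in F4/80-low and 7 in F4/80-high than non-cystic tissue, with sums of 48.5 to 168 CPM in non-cystic libraries, 153 to 495 CPM in F4/80-low libraries and 615 to 1668 CPM in F4/80-high libraries. Of 6 injured tubule markers, 4 and 6 were higher in those comparisons, with sums of 575 to 3676, 2640 to 100496 and 52824 to 120107 CPM. Of 6 tested dendritic cell markers, 5 were higher in F4/80-high than non-cystic tissue, with sums of 5.33 to 12.4, 10.9 to 25.9 and 38.5 to 73.0 CPM. No marker of these 6 lists was at 0 throughout a region type. The part of this change in cell content in the values below was not tested, and in bulk tissue a change in the number of cells and a change in RNA per cell cannot be told apart.

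Fold changes are on the log2 scale with a standard error (SE) from edgeR's quasi-likelihood test on 9 sums, 1 per kidney and region type, with the kidney as a block, and a gene was called at a Benjamini-Hochberg adjusted p below 0.05 over 16034 tested genes. Of the 39 members, 30 passed the filter on low counts: 9 ligands, 20 receptors and Tnfsf13os. The filter keeps genes that are high in 1 group alone, so the counts below describe those members and do not stand for the family.

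In F4/80-low against non-cystic regions, Cd40 and Tnfrsf1a were higher and no tested member was lower. Over all tested genes 1.51% were called higher and 0.0249% lower. The median log2 fold change of the 30 members was 1.06 (1.02 with Tnfrsf11b, absent from non-cystic libraries, at its lower bound), against 0.00 for all genes. In F4/80-high against non-cystic regions, 19 members were higher, 7 ligands and 12 receptors, and Tnfrsf21 was lower. Among all genes 19.7% were called higher and 19.5% lower, and the medians were 1.94 for members and 0.04 for all genes. Without kidney 1, the calls of Fas, Fasl, Tnfrsf11a, Tnfrsf12a, Tnfsf8 and Tnfsf12 were lost. In F4/80-high against F4/80-low regions, 11 members were higher and 2, Tnfrsf21 and Tnfsf10, were lower, with 10.3% of all genes called higher and 14.0% lower and medians of 1.30 and 0.04. Without kidney 1, 3 of these 13 calls were left (Tnfrsf13b, Tnfsf13b and Tnfsf10), and without F4/80-low kidney 2 replicate 1, 7 were left, with Cd27, Cd40, Tnfrsf18, Tnfrsf1b, Tnfsf8 and Tnfsf13 lost. These comparisons share samples, so their calls are not independent of each other.

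**Figure D1:**
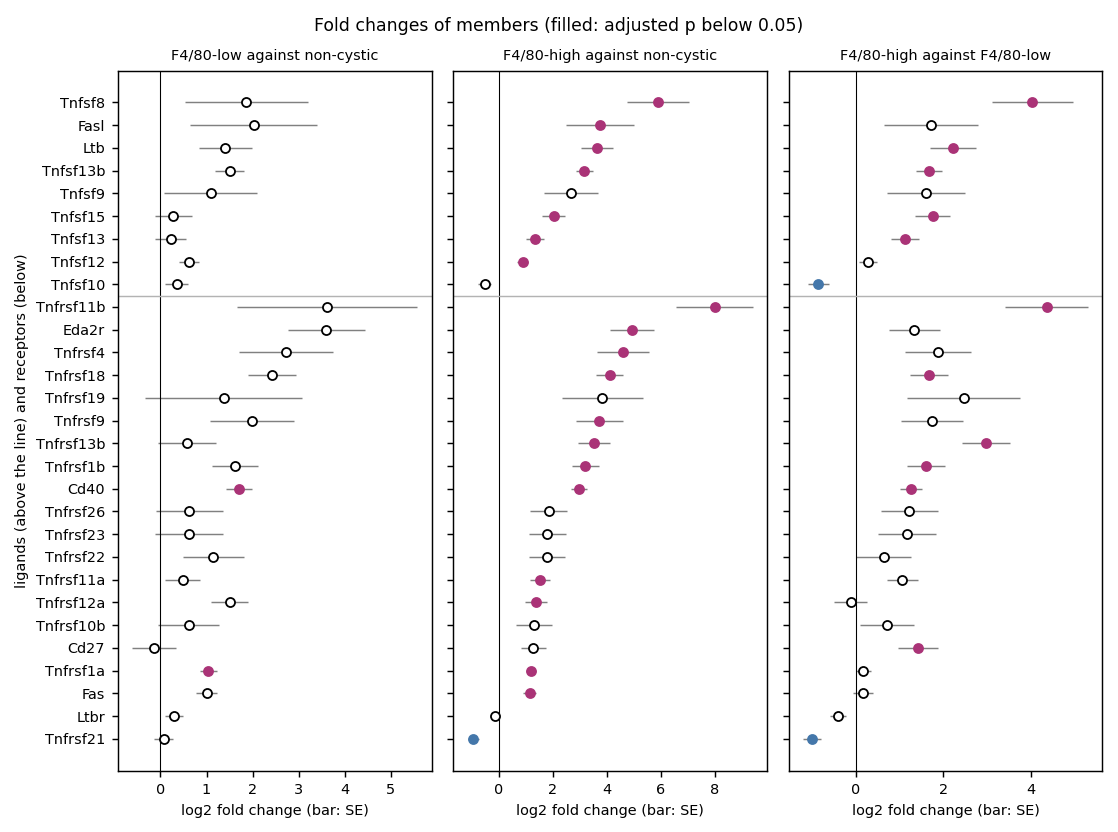
Log2 fold change of the 29 tested coding members in 3 comparisons, ligands above the grey line and receptors below, with bars of 1 SE from the fit on 9 sums. Filled points passed (adjusted p below 0.05), purple for higher and blue for lower. Tnfrsf11b is drawn at its fitted values, although it had 0 counts in non-cystic libraries and its change against them has only a lower bound. In the middle panel 19 points are filled purple and 1, Tnfrsf21, is blue, while the left panel has 2 filled points.

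**Figure D2:**
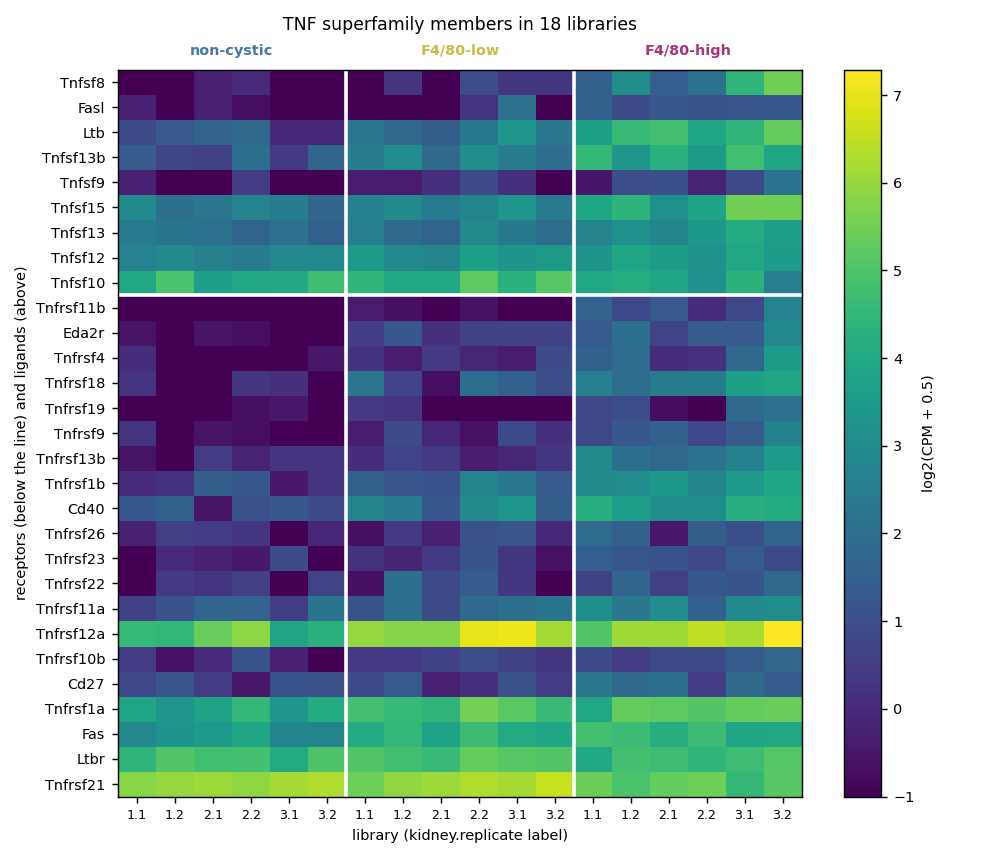
Level of the same 29 members in each of 18 libraries as log2(CPM + 0.5), columns ordered by region type, kidney and replicate label. Receptors such as Tnfrsf21, Tnfrsf12a, Ltbr and Tnfrsf1a are bright in every column, whereas Tnfrsf11b, Tnfsf8 and Eda2r are dark in the non-cystic columns.

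Among receptors with a high level in all 3 region types, the TNF receptor Tnfrsf1a (ENSMUSG00000030341, chromosome 6, 125349362 to 125362484), which carries a death domain, had 12.3, 19.0 and 12.1 CPM in kidneys 1 to 3 in non-cystic, 25.6, 32.7 and 30 CPM in F4/80-low and 25.8, 34.7 and 39.6 CPM in F4/80-high regions. The non-cystic values lay below all others, and the values of the 2 cystic region types overlapped. F4/80-low tissue exceeded non-cystic tissue by 1.04 ± 0.19 on the log2 scale (adjusted p = 0.0293), and F4/80-high tissue exceeded it by 1.21 ± 0.19 (adjusted p = 0.00111). Between the cystic types the difference was 0.17 ± 0.18 (adjusted p = 0.523). The F4/80-low call was lost in 10 of 33 alternatives. Among them were leaving out kidney 1, kidney 2, F4/80-low kidney 3 replicate 1 or F4/80-low kidney 2 replicate 2, the library high in Spp1. The call was also lost with the libraries of either replicate label alone.

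Tnfrsf12a (ENSMUSG00000023905, chromosome 17, 23675445 to 23677468), the receptor Fn14 for the ligand TWEAK, had the highest level per exon length in both cystic region types. Its values were 23.1, 52.5 and 15.8 CPM in non-cystic, 59.0, 87.6 and 105 CPM in F4/80-low and 47.8, 79.1 and 109 CPM in F4/80-high regions. Non-cystic kidney 2 reached above F4/80-high kidney 1, so the groups overlapped, although each kidney on its own was higher in F4/80-high than in non-cystic tissue. F4/80-high tissue exceeded non-cystic tissue by a log2 fold change of 1.38 ± 0.40 (adjusted p = 0.0272), a call lost in 6 of 33 alternatives, among them leaving out kidney 1, F4/80-low kidney 2 replicate 2 or F4/80-high kidney 1 replicate 2. For F4/80-low against non-cystic it was 1.50 ± 0.40 and did not pass (adjusted p = 0.156). Its ligand gene Tnfsf12 (TWEAK; chromosome 11, 69686250 to 69695849) had 6.63, 5.27 and 6.68 CPM in non-cystic, 8.97, 9.06 and 10.3 in F4/80-low and 11.3, 9.85 and 13.3 CPM in F4/80-high regions. That was 0.89 ± 0.21 above non-cystic tissue (adjusted p = 0.00877), a call lost in 4 of 33 alternatives: without kidney 1, without kidney 2, and with the libraries of either replicate label alone. Tnfsf12 and Tnfsf13 share exons with an uncounted read-through transcript, so their counts are uncertain.

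Fas (ENSMUSG00000024778, chromosome 19, 34290666 to 34327772), the death receptor for Fas ligand, had 8.22, 13.1 and 6.37 CPM in non-cystic, 19.1, 19.0 and 15.6 CPM in F4/80-low and 25.7, 21.3 and 14.2 CPM in F4/80-high regions. Every cystic value was above every non-cystic value. Fas passed in F4/80-high regions (1.15 ± 0.23, adjusted p = 0.00346) and missed the threshold in F4/80-low regions (1.00 ± 0.23, adjusted p = 0.0713). Fasl, the ligand, was scarce, with 5, 31 and 104 counts in the 3 region types. Its values were 0.177, 0.219 and 0 CPM in non-cystic, 0, 0.328 and 1.96 CPM in F4/80-low and 1.89, 1.73 and 1.82 CPM in F4/80-high regions, and F4/80-low overlapped both others. It was called higher in F4/80-high than non-cystic tissue (3.74 ± 1.25, adjusted p = 0.0408), but that call was lost in 9 of 32 alternatives, 8 of them leaving out a kidney or library. In F4/80-low tissue 2 of 6 libraries had Fasl counts, 26 of them in kidney 3 replicate 1 and 5 in kidney 2 replicate 2.

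The members that were lower were a death-domain receptor and a ligand. Tnfrsf21 (DR6; ENSMUSG00000023915, chromosome 17, 43016555 to 43089189) had 60.7, 64.2 and 74.2 CPM in non-cystic, 52.8, 72.8 and 85.6 CPM in F4/80-low and 35.6, 41.4 and 27.3 CPM in F4/80-high regions. The F4/80-high values lay below all others. The log2 fold change was -0.93 ± 0.21 against non-cystic (adjusted p = 0.00739) and -1.0 ± 0.21 against F4/80-low (adjusted p = 0.01), and both calls were lost when libraries were scaled by total counts, which moved the median of all genes to 0.65 and 0.52. Tnfsf10 (TRAIL, which can kill cells through death receptors) had 23.5, 13.8 and 19.3 CPM in non-cystic, 18.4, 25.4 and 26.9 in F4/80-low and 15.5, 11.1 and 12.9 CPM in F4/80-high regions. It was lower in F4/80-high than in F4/80-low regions (-0.86 ± 0.24, adjusted p = 0.0271), with the same loss under total counts and a loss in 12 of 33 alternatives. Its receptor gene Tnfrsf10b had 1.57 ± 0.655 CPM at its highest, in F4/80-high regions, and was not called. Ltbr, the lymphotoxin beta receptor, had 25.9 ± 4.01, 31.8 ± 2.02 and 24.1 ± 4.48 CPM and was not called in any comparison.

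**Figure D3:**
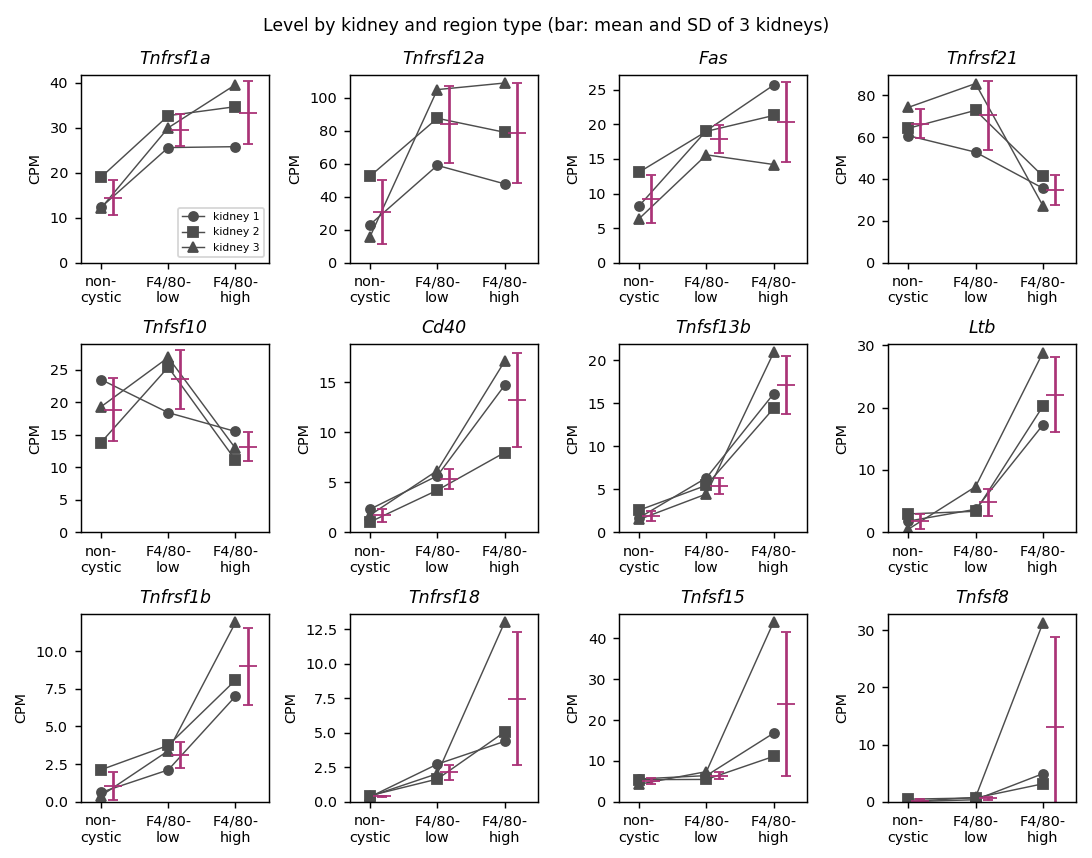
CPM of 12 members by region type, 1 line per kidney, with the mean and SD of 3 kidneys as purple bars, drawn on linear axes that start at 0, which cuts a bar that would pass below 0. Tnfrsf1a and Fas separate non-cystic from both cystic types, Cd40, Tnfsf13b, Ltb and Tnfrsf1b are highest in F4/80-high regions of every kidney, and Tnfsf15 and Tnfsf8 are highest in kidney 3.

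Among receptors known from antigen-presenting cells and lymphocytes, Cd40 (ENSMUSG00000017652, chromosome 2, 165055627 to 165072948), which antigen-presenting cells use to receive help from T cells and which can also be found on epithelium, was the member called in all 3 comparisons. It had 2.30, 1.02 and 1.71 CPM in non-cystic, 5.64, 4.20 and 6.17 CPM in F4/80-low and 14.7, 7.97 and 17.1 CPM in F4/80-high regions, with no overlap between kidneys of any 2 region types. Compared with non-cystic tissue, the log2 fold change was 1.71 ± 0.28 in F4/80-low (adjusted p = 0.0197) and 2.97 ± 0.28 in F4/80-high tissue (adjusted p = 0.000104), and it was 1.26 ± 0.26 between the cystic types (adjusted p = 0.00802). The first call was lost in 9 of 33 alternatives. Among them were leaving out kidney 1, kidney 2, F4/80-low kidney 2 replicate 2 or F4/80-low kidney 3 replicate 1. The call was also lost with no pairing by kidney and with the libraries of either replicate label alone. The gene of its ligand, Cd40lg, had 2, 4 and 50 counts and did not pass the filter on low counts, so the ratio of F4/80-high to non-cystic was 17.1 with an exact 95% interval of 4.50 to 145, which covers counting error only.

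Tnfrsf1b, the second TNF receptor and without a death domain, had 0.619, 2.12 and 0.388 CPM in non-cystic, 2.11, 3.74 and 3.38 in F4/80-low and 7.00, 8.07 and 11.9 CPM in F4/80-high regions. The F4/80-high values stood above the rest, with log2 fold changes of 3.21 ± 0.50 against non-cystic (adjusted p = 0.00112) and 1.60 ± 0.44 against F4/80-low (adjusted p = 0.0281). The second call was lost in 4 of 33 alternatives: without kidney 1, without F4/80-low kidney 2 replicate 1, and with either replicate label alone. Tnf itself had 1, 8 and 31 counts over 6 libraries each and did not pass the filter. Its F4/80-high to non-cystic ratio was 21.2 with an interval of 3.54 to 866. With no filter, Tnf (adjusted p = 0.0393) and Cd40lg (adjusted p = 0.0204) were called higher in F4/80-high than in non-cystic regions. Neither was called against F4/80-low regions (adjusted p = 0.462 for Tnf and 0.0682 for Cd40lg). The Tnf counts were uneven, at 0, 7, 15, 0, 5 and 4 in the F4/80-high libraries.

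Tnfrsf13b (TACI), a receptor of B cells for BAFF and APRIL, had 0.457 ± 0.325, 0.670 ± 0.127 and 5.58 ± 2.19 CPM in the 3 region types (SD, n = 3). Its F4/80-high values of 5.42, 3.47 and 7.84 CPM were above every other value, and it was higher by 3.54 ± 0.59 against non-cystic (adjusted p = 0.00147) and 2.97 ± 0.55 against F4/80-low regions (adjusted p = 0.00571). The BAFF gene Tnfsf13b (chromosome 8, 10006467 to 10039072) had 1.68, 2.56 and 1.48 CPM in non-cystic, 6.32, 5.45 and 4.44 CPM in F4/80-low and 16.1, 14.4 and 20.9 CPM in F4/80-high regions, again with no overlap. F4/80-high tissue was higher than non-cystic (3.17 ± 0.32, adjusted p = 0.000133) and F4/80-low tissue (1.67 ± 0.29, adjusted p = 0.00439), and Tnfsf13b missed the threshold for F4/80-low against non-cystic (1.50 ± 0.32, adjusted p = 0.0524). The APRIL gene Tnfsf13 had 3.74 ± 0.744, 4.34 ± 0.305 and 9.73 ± 3.64 CPM and was higher by 1.35 ± 0.32 (adjusted p = 0.00909) and 1.13 ± 0.32 (adjusted p = 0.0299), the latter lost in 9 of 33 alternatives, although its counts overlap the antisense Tnfsf13os, for which strand was not kept. The other BAFF receptors were near absent, with 5, 8 and 24 counts for Tnfrsf13c and 8, 7 and 12 for Tnfrsf17. Of 8 B and plasma cell markers, 7 were tested and 4 were higher in F4/80-high than in non-cystic regions, beside 19.7% of all tested genes. Their summed levels of 11.6 to 517 CPM in non-cystic and 43.3 to 1252 CPM in F4/80-high libraries overlapped widely.

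Ltb, the membrane anchor of the lymphotoxin heterotrimer that signals through Ltbr, had 1.77, 2.93 and 0.466 CPM in non-cystic, 3.67, 3.35 and 7.30 in F4/80-low and 17.2, 20.2 and 28.8 CPM in F4/80-high regions. Its F4/80-high values were higher than all others, by 3.63 ± 0.58 against non-cystic (adjusted p = 0.0021) and 2.22 ± 0.52 against F4/80-low (adjusted p = 0.019). Per exon length it moved from rank 10 among the members in non-cystic to rank 2 in F4/80-high regions, behind Tnfrsf12a, at 1.13 ± 0.812 and 14.6 ± 3.99 CPM per kilobase. Its partner subunit Lta had 5, 1 and 14 counts.

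Several co-stimulatory members known from activated or regulatory T cells were near 0 in non-cystic tissue. Tnfrsf18 (GITR) had 0.353, 0.439 and 0.388 CPM in non-cystic, 2.72, 1.64 and 2.03 in F4/80-low and 4.37, 5.05 and 13.0 CPM in F4/80-high regions, with F4/80-high tissue 4.10 ± 0.51 above non-cystic (adjusted p = 0.000384) and 1.67 ± 0.43 above F4/80-low tissue (adjusted p = 0.0204), the latter lost in 9 of 33 alternatives and without any 1 of the 3 kidneys. A part of its exons overlaps Gm16008 on the other strand. Tnfrsf4 (OX40) had 4, 28 and 184 counts. Its values were 0.265, 0 and 0.0777 CPM in non-cystic, 0.476, 0.657 and 0.827 CPM in F4/80-low and 2.74, 0.594 and 6.63 CPM in F4/80-high regions, with 11.6 CPM in F4/80-high kidney 3 replicate 2. F4/80-high tissue missed the threshold against F4/80-low tissue (1.87 ± 0.76, adjusted p = 0.103). It was called against non-cystic tissue (4.59 ± 0.95, adjusted p = 0.00437). Tnfrsf9 (4-1BB) had 0.353, 0.146 and 0 CPM in non-cystic, 0.816, 0.328 and 0.978 CPM in F4/80-low and 1.53, 1.73 and 3.65 CPM in F4/80-high regions and was called in the same comparison (3.72 ± 0.87, adjusted p = 0.00773), whereas its ligand gene Tnfsf9, which overlaps Gm11110 on the other strand, did not pass (2.68 ± 0.99, adjusted p = 0.0558). Cd27, a receptor of T and B cells, had 1.24 ± 0.635, 1.15 ± 0.630 and 2.79 ± 0.784 CPM in the 3 region types and was called for F4/80-high against F4/80-low alone (1.41 ± 0.46, adjusted p = 0.0492), and this call was lost in 22 of 32 alternatives.

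The ligands Tnfsf8 and Tnfsf15 varied among kidneys in F4/80-high tissue. Tnfsf8 (CD30 ligand) had 0, 0.439 and 0 CPM in non-cystic, 0.340, 0.657 and 0.752 in F4/80-low and 4.89, 3.12 and 31.2 CPM in F4/80-high regions. Tnfsf15 (TL1A, which binds DR3) had 5.57, 5.41 and 4.27 CPM in non-cystic, 6.39, 5.45 and 7.37 in F4/80-low and 16.8, 11.1 and 44.1 CPM in F4/80-high regions. Kidney 3 was highest for both in F4/80-high tissue, in each of its 2 libraries (21.0 and 45.5 CPM for Tnfsf8, 45.1 and 45.2 for Tnfsf15). Those libraries also had the highest Adgre1 levels, 76.1 and 68.5 CPM. Tnfsf8 was higher by 5.89 ± 1.13 against non-cystic (adjusted p = 0.0055) and Tnfsf15 by 2.03 ± 0.41 (adjusted p = 0.00446). The Tnfsf8 value rests on 6 non-cystic counts, all in kidney 2. Of its 720 F4/80-high counts, 357 were in kidney 3 replicate 2. Over the alternatives it ran from 4.15 to 10.98. Against F4/80-low regions the differences were 4.03 ± 0.93 for Tnfsf8 (adjusted p = 0.0197) and 1.75 ± 0.39 for Tnfsf15 (adjusted p = 0.0137). Their receptors Tnfrsf8 and Tnfrsf25 had 4, 1 and 14 and 5, 8 and 22 counts.

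The RANK system was represented by its receptors. Tnfrsf11a (RANK) had 1.41, 2.71 and 2.02 CPM in non-cystic, 2.65, 2.17 and 3.99 CPM in F4/80-low and 6.15, 4.70 and 7.29 CPM in F4/80-high regions. The F4/80-high values lay above all others. Tnfrsf11a was called against non-cystic (1.54 ± 0.37, adjusted p = 0.00878) and missed the threshold against F4/80-low regions (1.06 ± 0.35, adjusted p = 0.0543). Tnfrsf11b, the soluble decoy osteoprotegerin, had 0 counts in all 6 non-cystic libraries, 4 in F4/80-low and 118 in F4/80-high libraries. Kidneys 1 to 3 had 0.204, 0.0657 and 0 CPM in F4/80-low and 1.89, 1.19 and 3.20 CPM in F4/80-high regions. Against a floor of 3 counts over the non-cystic group it was at least 27.0-fold higher in F4/80-high regions, and it was called there (adjusted p = 0.00352) and against F4/80-low regions (4.36 ± 0.95, adjusted p = 0.0151). Tnfsf11, the ligand RANKL, had 0, 1 and 7 counts and was no member. Eda2r, the receptor of ectodysplasin A2, had 0.0884, 0.146 and 0 CPM in non-cystic, 1.43, 0.788 and 1.05 CPM in F4/80-low and 2.68, 1.63 and 4.14 CPM in F4/80-high regions. Kidney values of any 2 region types did not overlap, but single libraries of the 2 cystic types did. These were 3, 47 and 159 counts, a ratio of 36.3 with an interval of 12.2 to 178 for F4/80-high to non-cystic. Eda2r was called in that comparison alone (4.93 ± 0.80, adjusted p = 0.00131). It missed the threshold for F4/80-low against non-cystic (3.60 ± 0.83, adjusted p = 0.0738) and between the cystic types (1.33 ± 0.58, adjusted p = 0.12). Tnfrsf19 had 3, 11 and 86 counts and was not called (3.84 ± 1.48, adjusted p = 0.0669). The neighbouring and similar genes Tnfrsf22, Tnfrsf23 and Tnfrsf26, the first 2 of them decoys for TRAIL in mouse, had 1.85 ± 0.393, 1.68 ± 0.307 and 2.00 ± 0.724 CPM in F4/80-high regions and were not called, and their split of reads is uncertain. Tnfsf13os had 84, 69 and 169 counts and was not called. The remaining members, Tnfsf14 (LIGHT) with 5, 14 and 17 counts and its receptor gene Tnfrsf14 with 3, 2 and 10, were too low to test.

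**Figure D4:**
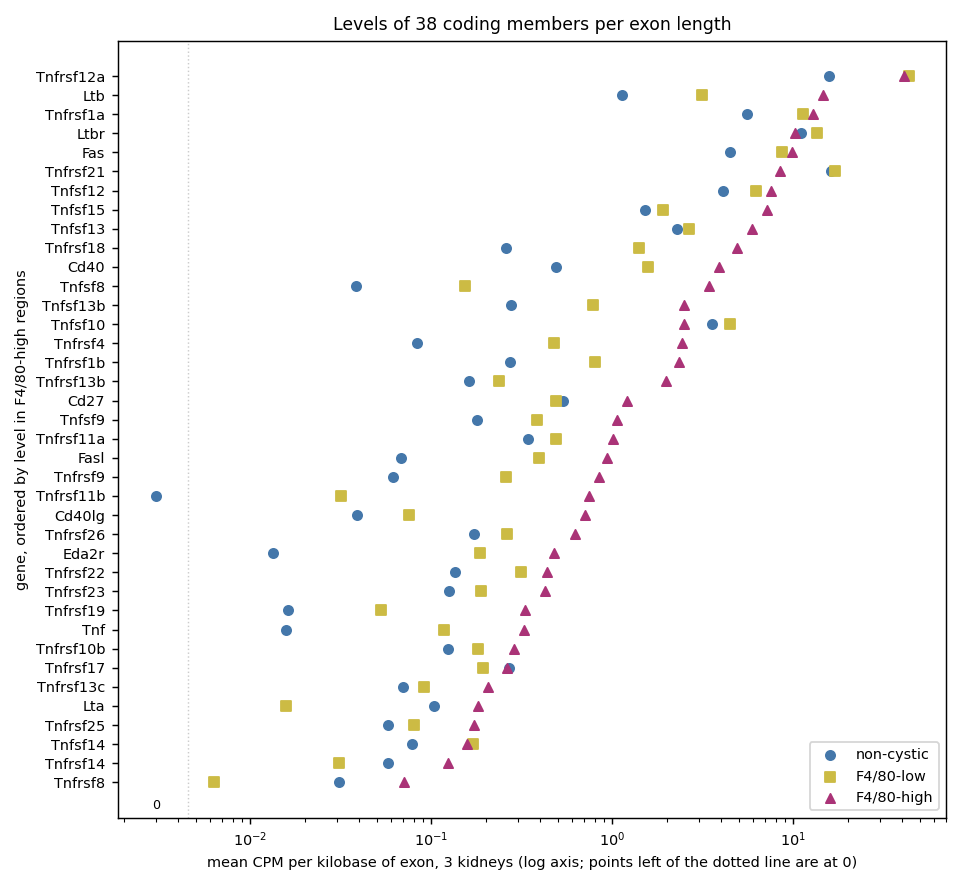
Mean CPM per kilobase of exon over 3 kidneys for the 38 coding members in each region type on a log axis, ordered by the level in F4/80-high regions, with points left of the dotted line at 0. Tnfrsf12a is at the top in cystic regions at 43.5 and 40.7, and Ltb lies to the right of its non-cystic point by a wide margin.

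Genes related to the signalling of the family were counted in lists. Their higher calls stand beside a background of 1.51%, 19.7% and 10.3% of all tested genes in the 3 comparisons. The TNF-induced list shares Birc3 with the adaptor list, Nfkbia and Tnfaip3 with the NF-kB list, and Vcam1 and Lcn2 with the injured tubule markers. The counts of these lists are therefore not separate results. Whether signals of these receptors led to the calls was not tested. Of 18 tested genes known to be induced by TNF, 9 were higher in F4/80-low than non-cystic tissue, 15 were higher and 1, Sod2, was lower in F4/80-high than non-cystic tissue, and 8 were higher and 1 lower between the cystic types, with median log2 fold changes of 1.62, 2.83 and 0.86. Examples were the monocyte attractant Ccl2, at 1.21 ± 0.794, 22.5 ± 15.5 and 79.7 ± 29.8 CPM (6.18 ± 0.32 in F4/80-high over non-cystic tissue, adjusted p = 8.843e-06), and the adhesion molecule Vcam1, at 6.55 ± 3.09, 94.7 ± 14.1 and 296 ± 48.0 CPM. Of 18 NF-kB genes, 2 (Nfkbie and Nfkbiz), 11 and 6 were higher in the same order, and 1, Chuk, a kinase of the pathway, was lower in both comparisons with F4/80-high regions. Among 23 adaptor and proximal signalling genes, the ubiquitin ligase gene Birc3 was the 1 called in F4/80-low regions (1.45 ± 0.29, adjusted p = 0.0448), and 6 were higher and 1, Traf4, lower in F4/80-high than in non-cystic regions. The list median there was 0.17, and the share of higher calls was near that background.

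Of 10 death effectors, Mlkl, the executor of necroptosis, was higher in F4/80-low (2.70 ± 0.53, adjusted p = 0.039) and in F4/80-high regions (3.77 ± 0.54, adjusted p = 0.000703) than in non-cystic regions, at 0.599 ± 0.435, 3.91 ± 0.886 and 7.98 ± 2.30 CPM. Casp8 and Ripk3 were also higher in F4/80-high than in non-cystic regions, and Bid was lower (-0.99 ± 0.18, adjusted p = 0.00219). Of 7 sheddase genes and partners, 1 was higher in F4/80-low than non-cystic tissue, and 2 were higher and 1 lower in F4/80-high than non-cystic tissue. Rhbdf2, a partner of the TNF-releasing protease ADAM17, was higher in both cystic types (1.57 ± 0.30 with adjusted p = 0.0365 and 1.58 ± 0.30 with adjusted p = 0.00299), Adam10, a protease that releases several members, was higher in F4/80-high than non-cystic tissue (0.70 ± 0.14, adjusted p = 0.0041), Adam17 was not called, and Timp3, an inhibitor of ADAM17, was lower in F4/80-high than in non-cystic regions (-1.35 ± 0.29, adjusted p = 0.00509). Of 3 tested family genes outside the symbol rule, Edar was higher in F4/80-high than in non-cystic regions (4.20 ± 0.92, adjusted p = 0.00567).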

How the data were processed

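RNA-seq counts per gene were deposited by the authors for 18 libraries, with no normalization by the authors, per the file headers. The submitters' processing notes list fastp 0.20.1, HTSeq 0.11.0 and FastQC 0.11.9, with no roles, and the assembly GRCm38 (mm10). Which aligner, annotation and strand option were used was not given in the sources used here, and the kit does not mark strand, per the labels' protocols. Symbols, positions and exon lengths came from GENCODE vM21 and promoters from RefSeq. 127 genes had no symbol (0.00837% of counts). The labels give no sequencing batch.

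Both libraries from 1 kidney and region were added together, giving 9 sums. These were fitted with edgeR 4.0.16 under R 4.3.3 (TMM scaling, filterByExpr, robust quasi-likelihood test, kidney as block, 4 residual degrees of freedom). The fit was also run on simulated counts without kidney differences and with spread taken from these data. That run cannot check the pairing or the spread among kidneys. The pairing by kidney comes from the labels, and deviations of a kidney's regions from the region means correlated at -0.154 to 0.275. SEs were taken as |log2 fold change| divided by the root of the F statistic. P-values rest on how region differences varied among these kidneys after the block took out overall kidney differences, with spread estimates shared over genes. The 33 alternatives used DESeq2 1.42.0, limma 3.58.1, other scalings and filters, and left-out kidneys or libraries. Kidney values or their mean and SD are given for members called in at least 1 comparison with a mean of at least 1 CPM in a region type, and others by counts or mean CPM. From each gene list the genes with the smallest p were named, apart from 1 gene that is not reported here. Members and lists were chosen with earlier results of these data known. Intervals and floors cover counting error only.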

Additional observations from a re-analysis of the deposited data

Results flagged for a closer look

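In 66 groups of 6 libraries (22 members in 3 region types), 7 had a highest or lowest library whose gap to its nearest neighbour exceeded 0.625 of the group's range, Dixon's 95% critical value. Chance flags about 1 in 20 groups of independent normal values. That rate need not hold here, with sparse counts and 2 libraries from each kidney. In F4/80-low libraries these were Eda2r in kidney 1 replicate 2 (gap 0.656 of the range, 1.91 CPM against 0.588 to 1.04), Fasl in kidney 3 replicate 1 (0.809, 3.79 CPM against 0 to 0.725) and Ltb in the same library (0.68, 9.76 CPM against 2.23 to 4.64). In F4/80-high libraries they were Tnfrsf1a, lowest in kidney 1 replicate 1 (0.689, 15.0 CPM against 33.2 to 41.5), and, in kidney 3 replicate 2, Tnfrsf4 (0.759, 11.6 CPM against 0.549 to 3.21) and Tnfrsf9 (0.732, 5.73 CPM against 1.20 to 2.41). Among non-cystic libraries it was Tnfrsf9 in kidney 1 replicate 1 (0.758, 0.710 CPM against 0 to 0.172).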

How the results depend on the processing

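No called member changed direction in any of the 33 alternatives. In F4/80-high against non-cystic regions, Cd40, Ltb, Tnfrsf1a, Tnfrsf1b, Tnfrsf13b, Tnfrsf18, Tnfsf13b and Tnfsf15 kept their calls in all 33, and Eda2r, Tnfrsf4 and Tnfrsf11b in each alternative that tested them. For F4/80-low against non-cystic, where 246 genes and 2 members were called, the counts were 523 and 6 with no filter, 675 and 7 with DESeq2, 601 and 7 with 18 libraries and the kidney as block, and 33 and 0 or 46 and 0 with the libraries labelled 1 or 2 alone. With the kidney as a random effect, 1 member was called, Eda2r, and Cd40 and Tnfrsf1a were not. The members' median was 0.72 with the 2 region types alone and 0.74 with the libraries labelled 1. With no replicate block (no pairing by kidney), 4 members were called, Tnfrsf1a, Eda2r, Tnfrsf18 and Tnfsf13b, and Cd40 was not. Leaving out a kidney or library gave 23 to 578 genes and 0 to 5 members: 23 and 0 without kidney 1, 144 and 0 without kidney 2, 578 and 5 without kidney 3, 388 and 5 without non-cystic kidney 2 replicate 2, 31 genes and 0 members without F4/80-low kidney 2 replicate 2, 76 and 0 without F4/80-low kidney 3 replicate 1, and 131 and 0 without non-cystic kidney 2 replicate 1. For F4/80-high against non-cystic (6289 genes, 20 members), the libraries labelled 1 gave 3707 and 12, and leaving out a kidney or library gave 3359 (without kidney 1) to 6550 genes and 14 to 23 members. For F4/80-high against F4/80-low (3895 genes, 13 members), the counts were 5922 genes with the random effect, 2413 with these region types alone, 1905 and 6 members or 2575 and 5 members with the libraries labelled 1 or 2, and 988 to 4214 genes and 3 to 14 members with a kidney or library left out, lowest without kidney 1, 2266 genes without kidney 2, and 7 members without F4/80-low kidney 2 replicate 1. Total counts raised the share of higher calls from 50.2 to 81.9% and from 42.3 to 79.0% in the F4/80-high comparisons with non-cystic and F4/80-low. Fewer samples enter the left-out fits, and the cause of the other changes was not tested. Replicate labels 1 and 2 share only a number: differences between them correlated at -0.1045 to 0.1315 across region types of a kidney.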
